A study of Mus musculus with 24 samples.

Results

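Skin of Dsg1-null mouse embryos was compared with wild-type skin at embryonic day 18.5 (E18.5). The comparison took the libraries whose genotype label reads KO and those whose label reads WT, 16 of the 24 RNA-Seq libraries of the series, 8 for each genotype. KO embryos carry a gene-edited deletion of the tandem Dsg1 genes (Dsg1c, Dsg1a and Dsg1b) on both chromosomes, and WT embryos carry none. The remaining 8 libraries came from HET (Dsg1+/-) embryos. HET libraries entered the same fit and so shared in its gene filter, scaling and estimate of the spread. Per the study's methods the embryos were of a C57BL/6 background, the KO line was made with CRISPR/Cas9, and RNA came from flash-frozen dorsal skin, in which epidermis, dermis, vessels and the tissue below were not separated. Libraries that share the leading title number and genotype were summed, which gave 5 columns for each genotype, called WT 1 to WT 5 and KO 1 to KO 5. The labels do not say that columns were separate embryos, so p-values measure the spread between these columns, which may be in part technical.

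Desmoglein 1 is a cadherin of desmosomes, the junctions that hold keratinocytes together, and it is made in the upper, differentiating layers of the epidermis. As keratinocytes move outward they replace their membrane with the cornified envelope, a shell of crosslinked proteins such as involucrin and the small proline-rich proteins with lipids bound to its surface. When the barrier is disturbed, keratinocytes are known to raise envelope precursors, connexin 26, antimicrobial proteins and the AP-1 transcription factors that bind many of those genes.

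The 16 libraries held 8.98 to 21 M counts (M, mega), WT columns 19.5 to 33.7 M and KO columns 20.7 to 33.6 M. The sum of the 3 Dsg1 genes was 723 to 933 CPM (counts per M counts of the library, with TMM scaling) in WT and 0.103 to 0.902 CPM in KO. KO 4 stood apart from the other columns. In 77 of 14636 genes compared it was more than 1 log2 unit above every other one of the 15 columns, against 0 to 13 genes in each of the other 14. These genes included the brown fat gene Ucp1 (1461 CPM in KO 4, 0.146 to 377 CPM elsewhere), the simple epithelial keratins Krt8 (106 CPM, 2.61 to 6.19 CPM elsewhere) and Krt18 (93.5 CPM, 0.718 to 2.67 CPM elsewhere) and the mesothelial gene Msln (72.1 CPM, 0.295 to 4.48 CPM elsewhere). The summed level of 14 adipocyte genes was 692 to 2458 CPM in WT and 1330, 3857, 2119, 12959 and 1046 CPM in KO 1 to KO 5. WT 4 was highest for the hypoxia gene Adm (23.1 CPM, 3.52 to 7.81 CPM elsewhere), and KO 3 for the globin gene Hbb-bt (1557 CPM, 300 to 1043 CPM elsewhere). Both libraries of WT 2 bear the same number but differed in sex genes, with 338 CPM of 4 Y-linked genes and 0.275 CPM of Xist in the one and 0.157 and 574 CPM in the other. They therefore cannot both come from 1 embryo, and WT 2 mixes a male and a female source. Xist was below 1 CPM in 1 of the 5 WT columns and in 3 of the 5 KO columns. Sex was thus not balanced between the genotypes. Basal keratinocytes were well represented in each column, Krt5 at 2806 to 3054 CPM in WT and 2653 to 3333 CPM in KO. In whole skin, fewer cells of a type and less RNA per cell cannot be told apart.

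**Figure D1:**
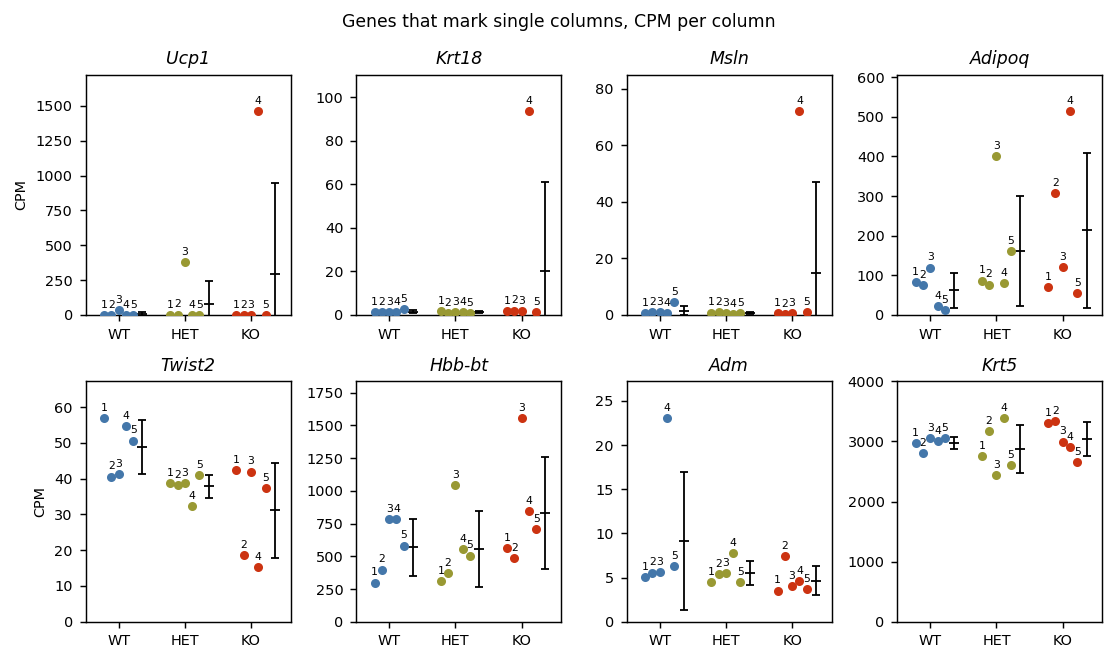
Level in CPM (linear axis from 0) of 8 genes in the 5 WT, 5 HET and 5 KO columns; each point is 1 column with its replicate number, and the bar is the mean with SD. KO 4 holds 1461 CPM of Ucp1 and 72.1 CPM of Msln, KO 2 and KO 4 are the highest KO columns of Adipoq and the lowest of Twist2, and Krt5 lies in the same range in all genotypes.

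The first question was how many transcripts differ in skin without Dsg1. Calls required a log2 fold change of at least 1 in either direction and an adjusted p no greater than 0.1 (edgeR quasi-likelihood test, Benjamini-Hochberg adjustment over 17094 genes). In KO, 23 genes were higher (0.135% of genes tested) and 32 were lower (0.187%). With no limit on fold change, 105 genes passed as higher (0.614%) and 92 as lower (0.538%), 197 in all (1.15%). The KO and WT columns did not overlap for 16 of the 23 higher and 28 of the 32 lower genes, where 1.61% and 1.76% of all genes tested did so in those directions and 3.37% in either. The median log2 fold change over all genes tested was -0.0095. Outside the desmogleins and stress keratins, which made up 4 of the calls (Dsg3 and Krt16 higher, Dsg1a and Dsg1b lower), 21 named genes were higher, and 18 named genes and 12 unnamed gene models were lower. The 55 genes had the same sign in the numbers sequenced under both title formats (3 columns of each genotype) and in those sequenced under one (2 of each), but they were called from these same columns, and for genes without overlap any subset must give that sign, so this is no separate check. The number of calls moved with the columns used: without KO 4 it was 11 higher and 15 lower, and leaving out any single column gave 8 to 113 higher and 10 to 127 lower. The KO and WT columns fitted alone gave 6 higher and 9 lower. A covariate for the Y-linked genes gave 12 higher and 18 lower.

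**Figure D2:**
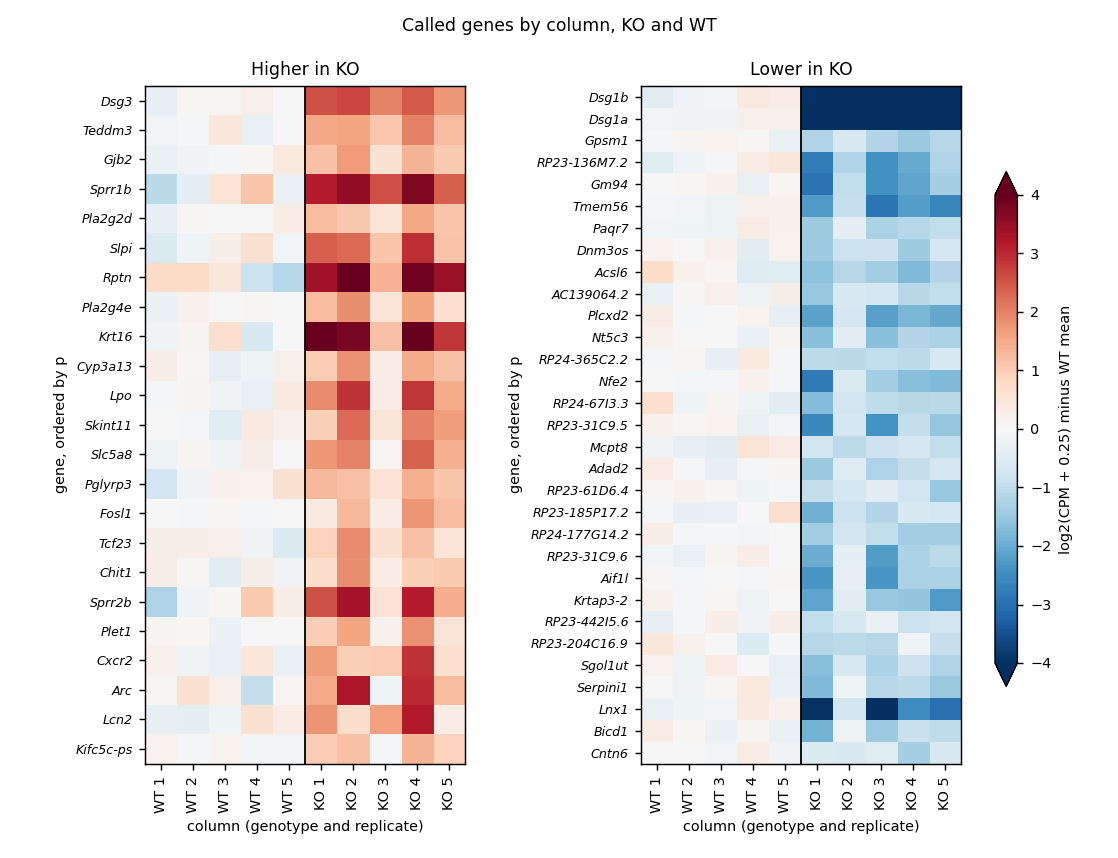
Heat map of the called genes, ordered by p, in the 5 WT and 5 KO columns, as log2(CPM + 0.25) minus the mean of the WT columns; red is above and blue below that mean, and the scale ends at 4 in either direction. Among the KO columns KO 3 is the palest for most higher genes and KO 2 for most lower genes.

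Within KO, the size of the change followed the column. KO 2 or KO 4 was the highest KO column for 22 of the 23 higher genes, 11 each, and KO 3 was the lowest for 18. Over all 8312 genes with a fold change above 0, KO 2 was highest in 24.7%, KO 4 in 32.7%, and KO 3 was lowest in 18.9%. Among the 32 lower genes KO 2 was the highest, so the nearest to WT, in 22, against 19% of the 8782 genes with a fold change below 0. The column nearest to WT was therefore a different one for the higher and for the lower genes.

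Proteins of the cornified envelope were among the genes that rose. Sprr1b, a small proline-rich envelope precursor, was at 9.07, 15.2, 28.9, 42.2 and 16.7 CPM in WT 1 to WT 5 and at 174, 232, 117, 265 and 104 CPM in KO 1 to KO 5 (log2 fold change 2.99, SE 0.43, adjusted p = 0.0171). All KO columns lay above all WT columns, the lowest of them more than 2 times the highest WT column. Repetin (Rptn), a filaggrin-like protein that carries an S100 domain, stood at 19, 19.2, 15.2, 6.08 and 4.94 CPM in WT and 116, 241, 29.5, 169.6 and 124 CPM in KO (log2 fold change 3.4, SE 0.54, adjusted p = 0.0231), with KO 3 well below the other KO columns and still above all of WT. Involucrin (Ivl), an early scaffold of the envelope and far more abundant, was at 511, 489.7, 490.2, 482 and 576 CPM in WT and 703, 1143, 624, 962 and 898 CPM in KO (log2 fold change 0.76, SE 0.13, adjusted p = 0.0231), a change under the fold limit with no overlap. Sprr2b was low in both, with 0, 0.29, 0.379, 0.982 and 0.453 CPM in WT and 3.22, 5.68, 0.638, 5.04 and 1.38 CPM in KO (log2 fold change 2.88, SE 0.62, adjusted p = 0.0793), and KO 3 lay within the WT range. Of 43 granular layer and envelope genes listed outside Lce1, 32 were tested, 4 passed as higher and 0 as lower, and 29 lay above 0 with a median log2 fold change of 0.50. The median was 0.46 without KO 4, when 3 passed as higher and Sprr2b did not (2.67, adjusted p = 0.176), and 0.20 without KO 2 and KO 4, when 3 passed as higher and 2 as lower. The abundant member Crct1, chosen after its values were seen, was at 1303, 1016, 1143, 1129.5 and 1112 CPM in WT and 230.1, 1029.7, 233, 448 and 564 CPM in KO (log2 fold change -1.19, SE 0.33, adjusted p = 0.107), with KO 2 within the WT range. Individual counts of the near-identical Sprr genes are uncertain. Transcription factors of the same program were led by Grhl3, a grainyhead factor needed for barrier formation, which was at 49.2, 53.2, 55.6, 58.2 and 56.2 CPM in WT and 88.3, 119, 92.5, 94.1 and 68.3 CPM in KO (log2 fold change 0.76, SE 0.13, adjusted p = 0.0184). It did not overlap, and it passed under all 23 alternatives. It was the only 1 of 41 listed differentiation factors to pass; 35 of them lay above 0, with a median of 0.27, and Ovol1 (0.51, adjusted p = 0.102) and Ppard (0.41, adjusted p = 0.102) came next.

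**Figure D3:**
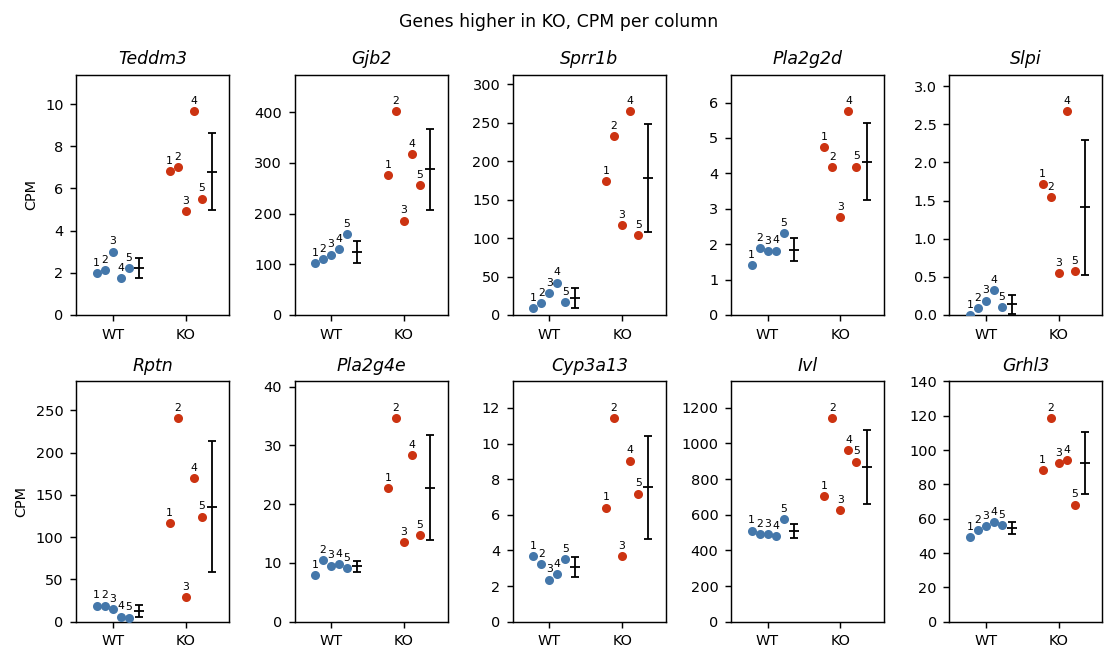
Level in CPM (linear axes from 0) of 10 genes that passed as higher in KO, 1 point per column with its replicate number and the mean with SD beside the points. All 10 have every KO column above every WT column, and KO 3 or KO 5 is the lowest KO column in each.

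Of the cell contact genes outside desmosomes, a connexin rose. Gjb2, which encodes the gap junction protein connexin 26, was at 103, 111, 119, 129 and 159.5 CPM in WT and 276, 402, 186, 317 and 257 CPM in KO (log2 fold change 1.21, SE 0.18, adjusted p = 0.0135). Every KO column was above every WT column, KO 3 the nearest. Gjb6 (connexin 30) did not pass (0.51, adjusted p = 0.129), and the median of the 10 connexins tested was 0.11. Of 10 classical cadherins, catenins and nectins all lay above 0 with a median of 0.24, and only Mllt4 (afadin, which ties nectins to actin) passed (0.44, adjusted p = 0.0986; without KO 4 0.35, adjusted p = 0.226). No tight junction gene of 19 passed, with 17 above 0 and a median of 0.26, and F11r (0.39, adjusted p = 0.149) was first among them. The tight junction median was 0.21 without KO 4 and 0.04 without KO 2 and KO 4. In the latter fit the connexin median was 0.03 and that of the cadherins, catenins and nectins 0.18. None of 15 hemidesmosome and basement membrane genes passed either (median 0.12).

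A few genes of lipid handling passed as higher, where 0.614% of all genes tested did so. The phospholipases release fatty acids or make lipid mediators from membrane lipid, and 2 of the 30 listed phospholipase A2 and eicosanoid genes tested passed, both as higher. Pla2g2d, a secreted phospholipase, was at 1.41, 1.88, 1.8, 1.82 and 2.32 CPM in WT and 4.75, 4.17, 2.77, 5.76 and 4.19 CPM in KO (log2 fold change 1.23, SE 0.20, adjusted p = 0.0171). Pla2g4e, a cytosolic one with N-acyltransferase activity, was at 7.96, 10.5, 9.55, 9.86 and 9.17 CPM in WT and 22.7, 34.7, 13.6, 28.4 and 14.7 CPM in KO (log2 fold change 1.28, SE 0.23, adjusted p = 0.0297). Neither overlapped, and the WT columns of Pla2g4e lay within a narrow range. In sterol synthesis, 3 of 24 genes passed as higher and 22 lay above 0, with a median of 0.23 (0.20 without KO 4, when 0 passed). Msmo1 (0.50, adjusted p = 0.0915) and Nsdhl (0.43, adjusted p = 0.0964), which remove methyl groups from sterol precursors, were among the 3 that passed. Sqle, an epoxidase earlier in the pathway, did not pass (0.42, adjusted p = 0.102). Ephx3, an epoxide hydrolase that acts on the linoleate esters of the lipid envelope, was at 37.6, 39.6, 47.3, 39.9 and 45.9 CPM in WT and 68, 87.6, 50.3, 79.4 and 49.8 CPM in KO (log2 fold change 0.67, SE 0.14, adjusted p = 0.0648). It was the only 1 of 32 lipid envelope and acylceramide genes to pass, while 27 lay above 0 (median 0.18), and without KO 4 it did not pass (0.61, adjusted p = 0.176). The median of that list was 0.16 without KO 4 and 0.01 without KO 2 and KO 4. Cyp3a13, a cytochrome P450 of drug and steroid oxidation, was at 3.69, 3.22, 2.37, 2.66 and 3.53 CPM in WT and 6.4, 11.4, 3.7, 9.05 and 7.19 CPM in KO (log2 fold change 1.29, SE 0.25, adjusted p = 0.0405), with KO 3 almost at WT 1.

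Fatty acid and triglyceride genes had a higher median, 0.42 over 28 tested, but none passed. That median was 0.21 without KO 4 and 0.04 without KO 2 and KO 4, the columns with the highest adipocyte levels. All 14 adipocyte genes lay above 0 with a median of 1.86 and none passed; Adipoq was at 82.2, 74.6, 119.7, 21.9 and 12.4 CPM in WT and 69.5, 308, 121, 514 and 54.7 CPM in KO (log2 fold change 1.78, SE 0.79, adjusted p = 0.243). For the sterol genes, whose median moved less, the part of fat tissue was not tested. The oxidative phosphorylation median of 0.35 over 31 genes was -0.01 without KO 4.

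Antimicrobial and inflammatory genes were next, and most were low. Slpi, a secreted inhibitor of neutrophil elastase, was at 0, 0.0869, 0.19, 0.327 and 0.101 CPM in WT and 1.71, 1.55, 0.553, 2.67 and 0.571 CPM in KO (log2 fold change 3.21, SE 0.55, adjusted p = 0.0231). The groups did not overlap, although KO 3 and KO 5 were far below the other KO columns. Lactoperoxidase (Lpo) was nearly absent from WT at 0.0485, 0.0869, 0.0316, 0 and 0.151 CPM and was at 0.902, 2.07, 0.128, 2.0 and 0.619 CPM in KO (log2 fold change 4.14, SE 0.80, adjusted p = 0.0423), where KO 3 lay within the WT range. Chit1, a chitin-cleaving enzyme, was at 20.9, 18.1, 12.7, 20.5 and 15.7 CPM in WT and 28.5, 63.8, 21.5, 33.8 and 36.2 CPM in KO (log2 fold change 1.07, SE 0.23, adjusted p = 0.0753), KO 2 being the highest and KO 3 just above WT 1. Pglyrp3, a peptidoglycan recognition protein, was at 2.96, 4.75, 5.91, 5.86 and 8.06 CPM in WT and 13.2, 12, 7.96, 14.5 and 11.7 CPM in KO (log2 fold change 1.11, SE 0.23, adjusted p = 0.0648), and KO 3 lay just under WT 5. Lcn2, an iron-sequestering lipocalin, was at 0.825, 0.811, 0.948, 1.82 and 1.41 CPM in WT and 4.45, 1.99, 4.0, 12 and 1.43 CPM in KO (log2 fold change 2.03, SE 0.50, adjusted p = 0.0978), with KO 4 the highest. Of 35 listed antimicrobial and IL-17 response genes only 17 were high enough to test; 3 passed as higher (Slpi, Chit1 and Lcn2), 15 lay above 0, and the median was 0.77 (0.68 without KO 4, 0.26 without KO 2 and KO 4). Without KO 4 only Slpi of the 3 passed, and the values were 1.1, adjusted p = 0.146 for Chit1, 1.37, adjusted p = 0.206 for Lcn2 and 1.03, adjusted p = 0.172 for Pglyrp3.

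Cxcr2, the chemokine receptor of neutrophils, was at 0.34, 0.232, 0.19, 0.473 and 0.201 CPM in WT and 1.44, 0.775, 0.809, 3.7 and 0.571 CPM in KO (log2 fold change 2.31, SE 0.54, adjusted p = 0.0891), with KO 4 the highest. Without KO 4 it was 1.67, adjusted p = 0.18. It was the only 1 of 18 neutrophil genes tested to pass, and 16 lay above 0 with a median of 1.04. The summed level of the 20 listed neutrophil genes with counts was 30.1 to 48.8 CPM in WT and 67.4, 52.2, 64.7, 136 and 36.4 CPM in KO 1 to KO 5, so KO 5 lay within the WT range. That sum includes S100a8 (mean 4.45 CPM in WT, 14.6 CPM in KO) and S100a9 (5.71 and 19 CPM), neither of which passed. The paper reports both in keratinocytes or epidermis of patients, so the sum does not measure neutrophils alone. Camp (-0.03) and Ctsg (0.06) lay near 0. The part of neutrophil number in the rises of Lcn2 and Cxcr2 was not tested. Il1rn, the natural antagonist of interleukin 1, was at 48.1, 51.5, 51.9, 57.7 and 65.1 CPM in WT and 80.2, 126, 62.6, 103 and 79.6 CPM in KO (log2 fold change 0.72, SE 0.16, adjusted p = 0.0804), with KO 3 below WT 5. No other of 16 interleukin 1 family genes passed. Il1a, which all KO columns held below all WT columns, had -2.06, adjusted p = 0.113, and without KO 2 and KO 4 a total of 3 family members passed as lower. None of 16 type 2 cytokine genes and none of 36 interferon and antigen presentation genes passed, and their medians were 0.10 and -0.05. Of 11 genes of the Skint family, Skint11 rose and Skint7 fell. Skint11 was at 0.534, 0.493, 0.316, 0.764 and 0.655 CPM in WT and 1.26, 3.5, 0.851, 2.93 and 2.24 CPM in KO (log2 fold change 1.97, SE 0.41, adjusted p = 0.0633) with no overlap, and the more abundant Skint7 at 11, 12.1, 12.1, 20.8 and 17.1 CPM and 5.26, 11.2, 8.43, 4.99 and 8.95 CPM (log2 fold change -0.91, SE 0.23, adjusted p = 0.0981) with a small overlap at KO 2. Without KO 4 neither of them nor Il1rn passed, at adjusted p = 0.15 for Skint11, 0.222 for Skint7 and 0.18 for Il1rn.

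Signalling and transcription factor genes showed smaller numbers of calls. Fosl1, the AP-1 subunit Fra-1, lay in a tight range in WT at 1.12, 1.07, 1.17, 1.06 and 1.11 CPM and was at 1.47, 3.06, 1.4, 4.32 and 2.95 CPM in KO (log2 fold change 1.24, SE 0.27, adjusted p = 0.074). KO 1 and KO 3 were only slightly above WT, and the other 3 KO columns clearly so. It was the only 1 of 17 AP-1 and related factors to pass (median -0.03), with Fos next (0.45, adjusted p = 0.164). Without KO 4 Fosl1 did not pass (1.0, adjusted p = 0.176). Among EGFR family genes Rhbdf2 (0.52, adjusted p = 0.0978), which carries the ligand-shedding enzyme ADAM17 to the surface, passed alone of 16, followed by the ligands Hbegf (0.69, adjusted p = 0.102) and Ereg (1.53, adjusted p = 0.105), and the median was 0.26. Dusp7 (0.40, adjusted p = 0.0978), a phosphatase of ERK, passed alone of 25 feedback and early genes (median 0.08). Wnt10a was at 14.8, 13, 14.4, 16.2 and 15 CPM in WT and 25.8, 22.1, 20.9, 21.3 and 22.2 CPM in KO (log2 fold change 0.62, SE 0.13, adjusted p = 0.0569), without overlap and without KO 4 still past the threshold (0.64, adjusted p = 0.0934), the only 1 of 41 Wnt and BMP genes. Trpv3 (0.51, adjusted p = 0.0915), a heat-gated calcium channel of keratinocytes, passed alone of 22 calcium and ion channel genes tested. Without KO 4, Rhbdf2 (adjusted p = 0.225), Dusp7 (adjusted p = 0.208) and Trpv3 (adjusted p = 0.204) did not pass. None of 21 Notch, 21 retinoid, 26 NRF2, 37 actin, 22 unfolded protein response, 25 hypoxia or 35 cell cycle genes passed, their medians lying between -0.02 and 0.06.

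**Figure D4:**
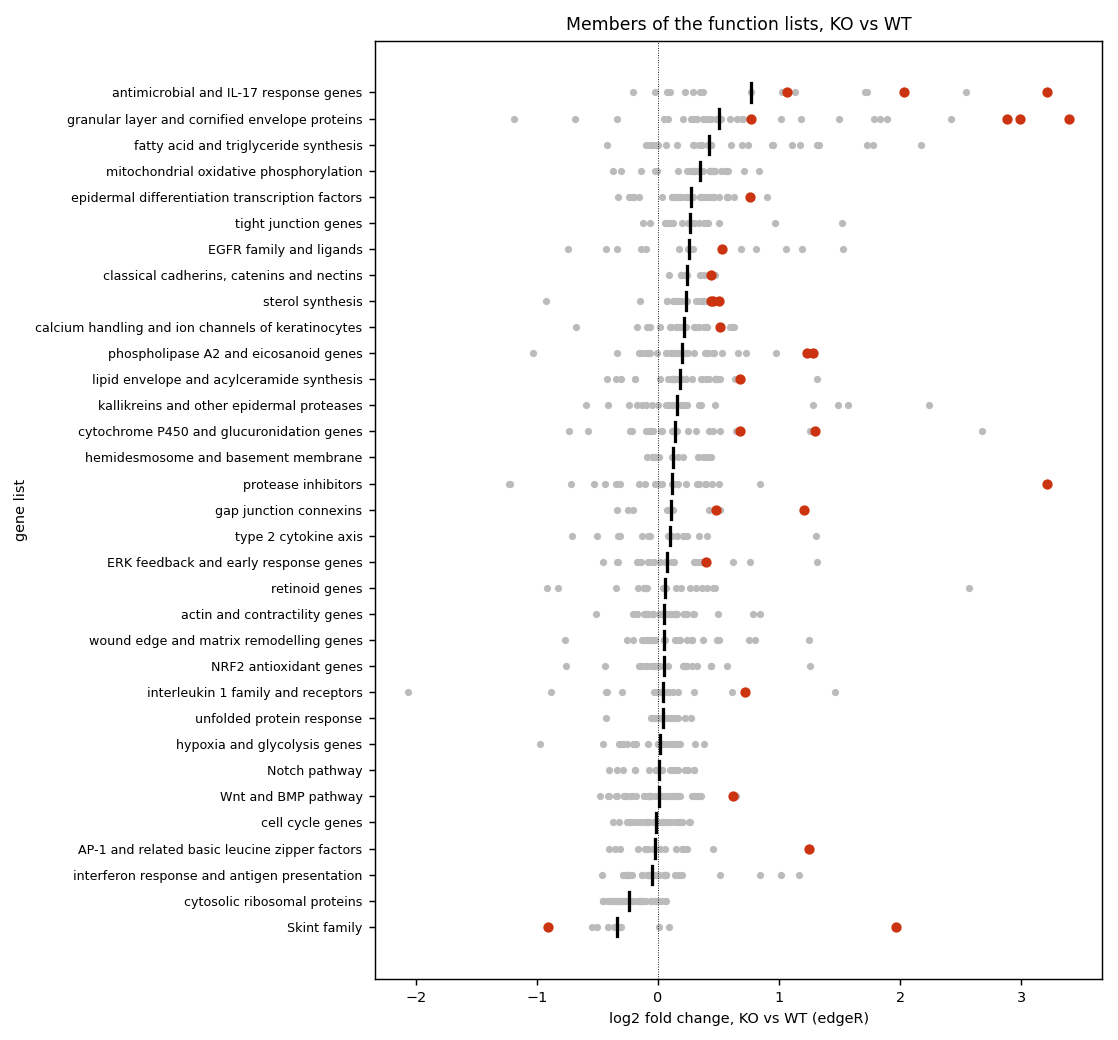
Log2 fold change, KO vs WT, of the tested members of 33 function lists; each point is 1 gene, red points passed an adjusted p of 0.1, and the black bar is the median of the list. Medians run from -0.34 (Skint family) to 0.77 (antimicrobial and IL-17 response genes), against -0.0095 over all genes, and red points to the left of 0 occur only in the Skint family.

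The remaining called genes that were higher belong to no list with more than 1 pass. Teddm3, a transmembrane protein of little known function, had the smallest p among them, with 1.99, 2.12, 3.0, 1.75 and 2.22 CPM in WT and 6.82, 7.01, 4.94, 9.66 and 5.52 CPM in KO (log2 fold change 1.61, SE 0.22, adjusted p = 0.00771). It did not overlap, and it was called under all 23 alternatives. Slc5a8, a sodium-coupled carrier of short fatty acids, was at 1.02, 1.33, 1.07, 1.53 and 1.21 CPM in WT and 4.66, 5.53, 1.32, 7.25 and 3.67 CPM in KO (log2 fold change 1.85, SE 0.39, adjusted p = 0.0633), where KO 3 lay below WT 4. Tcf23, a basic helix-loop-helix factor, was at 5.05, 5.1, 4.93, 3.82 and 2.72 CPM in WT and 8.14, 16.4, 6.55, 9.82 and 6.24 CPM in KO (log2 fold change 1.12, SE 0.24, adjusted p = 0.0752) without overlap. Plet1 (1.17, adjusted p = 0.0832), the early response gene Arc (2.54, adjusted p = 0.0915) and the pseudogene Kifc5c-ps (1.41, adjusted p = 0.0997) complete the set. Without KO 4 these 3, Slc5a8 and Tcf23 did not pass, at adjusted p = 0.164 for Slc5a8 and Tcf23, 0.18 for Plet1, 0.204 for Arc and 0.226 for Kifc5c-ps.

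Sequences before the start sites of the called genes were examined because an AP-1 subunit was among them. RefSeq promoters on GRCm38.p6, 250 bases before to 50 bases after the start, were found for 17 of the 23 higher genes (17 promoters) and 15 of the 32 lower genes (22 promoters). The AP-1 letters TGANTCA, which read the same on both strands, occurred in 7 of 17 promoters of higher genes (41.2%), in 3 of 22 of lower genes (13.6%), in 5.72% of 14365 promoters of genes tested and in 7.81% of all 32851 promoters. The 7 are shown in 30-base windows with the match in capitals, because they make up the largest departure of a motif share from that of the genes tested.
Sprr1b, chr3:92438872-92438901, minus strand: agcacctaggaTGAATCAtgtctgacaggc
Rptn, chr3:93393592-93393621, plus strand: tgagcccagaaTGATTCAggccctaccaac
Sprr2b, chr3:92316499-92316528, plus strand: aaaaggactctTGAGTCAcaagactcaacc
Chit1, chr1:134111179-134111208, plus strand: gtaggaagaagTGAGTCActgtagtggtgg
Cyp3a13, chr5:137921692-137921721, minus strand: gagagtacactTGACTCAgaactgtaggtc
Skint11, chr4:114163354-114163383, plus strand: tgacttgccttggtgTGACTCAggtttact
Plet1, chr9:50494370-50494399, plus strand: tggaggctgggTGATTCAtccaggtaatgt
They begin 15 (Skint11) to 195 (Sprr2b) bases before the start, and none shares a base with a match to the other motifs. The TEAD letters GGAATG occurred in 17.6%, 13.6% and 12.5% of promoters of higher genes, lower genes and genes tested. For the grainyhead letters AACNGGTT the shares were 5.88% (Rptn alone), 0% and 1.8%, and for the NF-kB letters (GGGA, any 4 bases, CC) they were 17.6%, 27.3% and 26.5%, all on both strands. A match describes letters and not binding, and these shares were not tested.

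Genes that fell were mostly not members of the epidermal lists. Gpsm1, a modulator of G protein signalling, was at 48.4, 53.4, 54.8, 51.6 and 41.5 CPM in WT and 21.3, 31.5, 22, 17.5 and 22.2 CPM in KO (log2 fold change -1.12, SE 0.16, adjusted p = 0.0105). All KO columns were below all WT columns, KO 2 the highest of them. Tmem56, a TLC domain membrane protein, was at 18.8, 18.2, 17.1, 22 and 22.2 CPM in WT and 3.85, 10.3, 2.34, 4.01 and 3.0 CPM in KO (log2 fold change -2.05, SE 0.33, adjusted p = 0.0184). Plcxd2, a phospholipase C-like protein, was at 28.1, 21.9, 22.7, 25.4 and 18.3 CPM in WT and 4.99, 14.5, 4.94, 6.32 and 5.43 CPM in KO (log2 fold change -1.68, SE 0.30, adjusted p = 0.0325). For both, KO 2 stood far above the other KO columns and below WT. Acsl6, a long-chain acyl-CoA synthetase, was at 9.46, 6.26, 5.85, 3.82 and 3.93 CPM in WT and 1.59, 2.36, 1.96, 1.44 and 2.33 CPM in KO (log2 fold change -1.59, SE 0.28, adjusted p = 0.024). Paqr7, a membrane progestin receptor, was at 51.6, 49.6, 48.2, 67.7 and 63.2 CPM in WT and 20.4, 43.6, 22.8, 25.1 and 27.9 CPM in KO (log2 fold change -1.0, SE 0.17, adjusted p = 0.0231). Nt5c3, a pyrimidine nucleotidase, was at 156, 139, 137, 114 and 147 CPM in WT and 43, 102, 43.5, 61.7 and 57.6 CPM in KO (log2 fold change -1.17, SE 0.21, adjusted p = 0.0325). Neither overlapped, and in each KO 2 lay close to the lowest WT column. Gpsm1, Tmem56, Acsl6 and Plcxd2 were called under all 23 alternatives.

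Nfe2, the p45 subunit of NF-E2 and best known from red cell and platelet precursors, was at 8.15, 8.06, 8.06, 9.31 and 7.96 CPM in WT and 0.962, 5.53, 3.06, 2.36 and 2.29 CPM in KO (log2 fold change -1.55, SE 0.30, adjusted p = 0.0423). No KO column reached WT, while 17 of the 21 erythroid and globin genes tested lay above 0 (median 0.54, 1 passed, Nfe2 itself). The summed level of the 22 listed erythroid and globin genes with counts was 1702 to 5232 CPM in WT and 3538, 3154, 9158, 5170 and 4436 CPM in KO 1 to KO 5. Dnm3os, a noncoding RNA that hosts miRNAs of mesenchyme, was at 11.4, 10.4, 11.7, 7.64 and 11.4 CPM in WT and 3.67, 5.64, 5.7, 3.75 and 6.24 CPM in KO (log2 fold change -1.07, SE 0.19, adjusted p = 0.024). Beside it all 14 dermal fibroblast genes lay below 0 with a median of -0.20 (-0.15 without KO 4), none passed, and their sum was 5543 to 7035 CPM in WT and 3852 to 5676 CPM in KO. Whether dermal content moved Dnm3os was not tested. Aif1l, an actin-bundling protein, was abundant at 186, 172, 183, 174 and 193 CPM in WT and at 36.1, 145, 35.6, 74.7 and 75.2 CPM in KO (log2 fold change -1.31, SE 0.31, adjusted p = 0.0915), with KO 2 the nearest to WT. Lnx1, an E3 ubiquitin ligase, was at 18.9, 20.1, 20.9, 28.7 and 25.4 CPM in WT and 1.23, 13.6, 1.02, 3.7 and 2.62 CPM in KO (log2 fold change -2.35, SE 0.56, adjusted p = 0.0978). KO 1 and KO 3 held the least of it and KO 2 the most. Without KO 4 the call was lost for Lnx1 (-2.3, adjusted p = 0.226), Aif1l (-1.31, adjusted p = 0.204) and Nfe2 (-1.49, adjusted p = 0.12). Without KO 2 and KO 4, a fit chosen after seeing the data, Lnx1 was at -3.84 (adjusted p = 0.000108). In that fit Aif1l was at -1.89 (adjusted p = 0.00129) and Nfe2 at -2.01 (adjusted p = 0.00149).

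**Figure D5:**
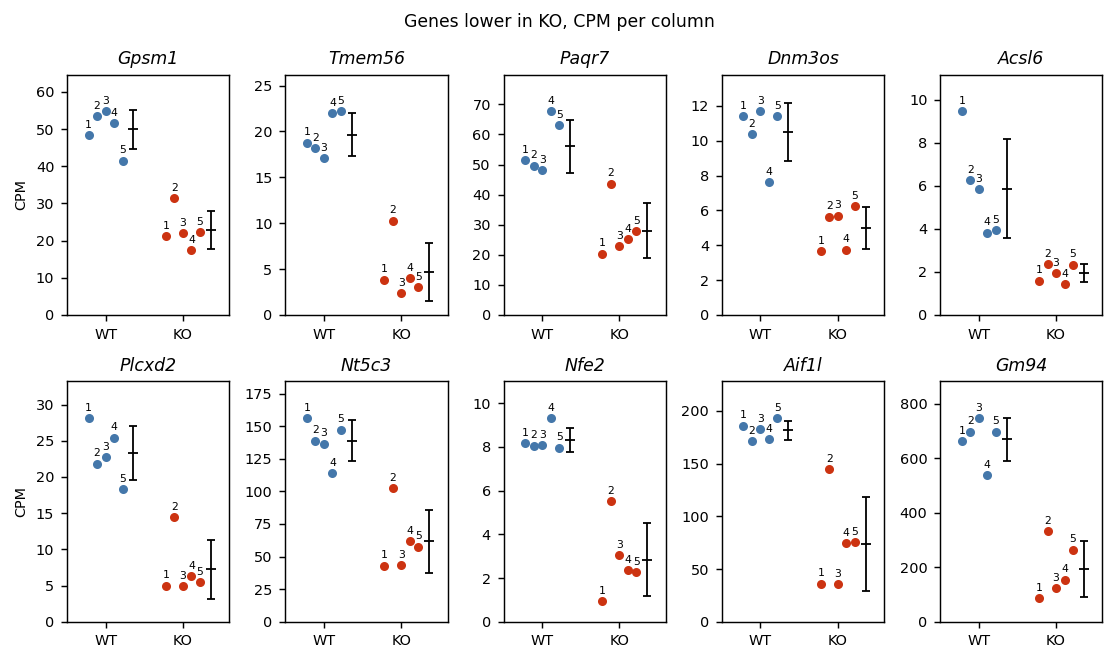
Level in CPM (linear axes from 0) of 10 genes called as lower in KO, 1 point per column with its replicate number and the mean with SD beside the points. Every KO column is below every WT column in all 10, and KO 2 is the KO column nearest to WT in each except Dnm3os.

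Low-level genes made up the rest of the named decreases. The basophil protease gene Mcpt8 was at 0.631, 0.522, 0.474, 1.16 and 0.957 CPM in WT and 0.331, 0.221, 0.298, 0.36 and 0.238 CPM in KO (log2 fold change -1.34, SE 0.29, adjusted p = 0.0793), while none of 12 mast cell genes passed (median -0.34, -0.17 without KO 4). Adad2 was at 0.728, 0.493, 0.379, 0.509 and 0.604 CPM in WT and 0.0301, 0.295, 0.0851, 0.154 and 0.238 CPM in KO (log2 fold change -1.75, SE 0.39, adjusted p = 0.0797). Krtap3-2, a keratin-associated protein of hair, was at 1.12, 0.898, 1.01, 0.80 and 0.957 CPM in WT and 0.0301, 0.627, 0.17, 0.154 and 0 CPM in KO (log2 fold change -2.22, SE 0.54, adjusted p = 0.0915). These 3 did not overlap, at levels of about 1 CPM or less. Of 26 hair follicle genes tested, none passed, and their median was 0.11. Sgol1ut was at 0.631, 0.464, 0.759, 0.546 and 0.403 CPM in WT and 0, 0.258, 0.0851, 0.206 and 0.0952 CPM in KO (log2 fold change -2.15, SE 0.53, adjusted p = 0.0978). Serpini1, the protease inhibitor neuroserpin, was at 5.24, 4.84, 5.5, 7.1 and 4.38 CPM in WT and 1.38, 4.65, 2.3, 2.47 and 1.76 CPM in KO (log2 fold change -1.11, SE 0.27, adjusted p = 0.0978), and KO 2 lay within the WT range. Bicd1 (-1.1, adjusted p = 0.0981), a dynein adaptor, and Cntn6 (-1.05, adjusted p = 0.0981), a contactin, were the last. Without KO 4 none of Mcpt8, Adad2, Krtap3-2, Sgol1ut, Serpini1, Bicd1 and Cntn6 passed, at adjusted p from 0.15 (Mcpt8) to 0.206 (Serpini1). Their log2 fold changes in that fit ran from -0.87 (Cntn6) to -2.36 (Sgol1ut). In the fit without KO 2 and KO 4, chosen after seeing the data, Mcpt8 (adjusted p = 0.182) and Cntn6 (adjusted p = 0.281) did not pass. Adad2, Krtap3-2, Sgol1ut, Serpini1 and Bicd1 did, at adjusted p from 0.00281 (Krtap3-2) to 0.0326 (Adad2). Of the 12 gene models, Gm94 was by far the most abundant, at 664, 698, 748, 539.5 and 699 CPM in WT and 86.2, 334, 124, 154 and 265 CPM in KO (log2 fold change -1.8, SE 0.28, adjusted p = 0.0171), with no overlap. RP23-136M7.2 had the smallest p of the gene models, with 4.61, 5.68, 6.1, 8.11 and 9.01 CPM in WT and 0.721, 2.69, 1.02, 1.44 and 2.62 CPM in KO (log2 fold change -1.99, SE 0.31, adjusted p = 0.0171).

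Other tissue and position lists held few passes. Of 41 cytosolic ribosomal protein genes 38 lay below 0 (median -0.24) and none passed. Some of them, such as Rps23 (8.04 to 9.62 CPM in WT), had very few counts, as had Gapdh (4.23 to 8.26 CPM in WT), genes with many processed copies in the genome. How reads with several matches were counted is not given in the sources used here. Among 29 homeobox position genes 22 lay below 0 (median -0.25), Hoxd4 passed as lower (-0.83, adjusted p = 0.0978; without KO 4 -0.78, adjusted p = 0.222), and the list sum was 421 to 444 CPM in WT and 394, 274, 417, 262 and 412 CPM in KO 1 to KO 5, lowest in KO 2 and KO 4. No gene passed among skeletal muscle (18), dermal collagen (12), endothelial (14), macrophage and Langerhans cell (17), T cell (12), melanocyte (12), nerve (14) or sebaceous (11) lists. Over 14597 genes with a transcript length, which are not independent replicates, fold change rose with length (Spearman correlation 0.221), and the median was -0.08 in the shortest and 0.09 in the longest of 4 bins of 3646 to 3652 genes.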

How the data were processed

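Raw counts per gene symbol, as deposited by the authors in 1 table of 54087 symbols and 24 libraries, were used. Per the labels, poly(A) RNA was made into directional libraries, and the submitters' processing notes name STAR and HTSeq without versions and the human build hg19, although samples and symbols are mouse. No coordinates were therefore taken from the authors' annotation (promoter windows are on the RefSeq build named with them), and annotation and strand setting are not given in the sources used here, so reads of antisense or overlapping genes may not be separable. Libraries sharing title number and genotype were summed to 15 columns (replicates numbered by ascending title number). Reads carry no molecular identifiers, and depth limits precision for genes under 1 CPM.

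Genes passing filterByExpr were scaled by TMM and tested in edgeR 4.0.16 (R 4.3.3) by its robust quasi-likelihood F-test with the 3 genotypes fitted jointly, Benjamini-Hochberg adjusted over all genes tested. SE came from fold change and F statistic. Lists (53 in all, 33 of function) and gene members were chosen with earlier results of these data known. The text gives values for up to 15 named genes in each direction in order of p, and for passed list members, a few genes being not reported here. Alternatives used DESeq2 1.42.0, limma 3.58.1, other filters, covariates and subsets. On simulated counts of KO vs WT (16929 genes, 200 changed 4-fold), edgeR recovered 198 with 7 false calls. The changed genes were drawn only from those above a count limit, and no simulated column was set apart or mixed in sex. The simulation therefore does not show recovery for genes under 1 CPM, for smaller changes or for columns such as KO 4. Column gaps were compared with the range of each group by Dixon's criterion.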

Additional observations from a re-analysis of the deposited data

Results flagged for a closer look

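In 174 groups of 5 columns (70 genes and 17 summed cell type lists, in WT and in KO), 17 held an end column that lay apart, its distance from the next one being a larger share of the range than Dixon's 95% criterion allows. For independent groups of normally distributed values, chance gives about 1 in 20. These groups share their columns and hold genes chosen because they passed, so no excess over that rate can be read. KO 2 was the highest KO column for Plcxd2 (gap 0.855 of the range), Tmem56 (0.79), Lnx1 (0.787), Krtap3-2 (0.728) and the suprabasal keratinocyte sum (0.812). KO 4 was the highest for Cxcr2 (0.722), Lcn2 (0.715), RP23-204C16.9 (0.823), the adipocyte sum (0.764) and the sebaceous gland sum (0.746), and the lowest for Cntn6 (0.818) and the dermal fibroblast sum (0.807). Wnt10a was highest in KO 1 (0.744) and RP24-365C2.2 in KO 5 (0.836). In WT, Nfe2 was highest in WT 4 (0.857), RP23-185P17.2 in WT 5 (0.725) and RP24-177G14.2 in WT 1 (0.77).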

How the results depend on the processing

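No paired analysis was possible because no title number occurs in more than 1 genotype. Against 23 higher and 32 lower genes, DESeq2 called 99 and 91, the KO and WT columns alone 6 and 9, the Y-linked covariate 12 and 18, an adjusted p of 0.05 11 and 14, the transcript length slope covariate 15 and 14, and the fit without KO 2 and KO 4 7 and 96, the last pair chosen after seeing the data. Lower genes alone moved to 76 with limma-voom, 21 at a mean of at least 50 counts, 85 with the skeletal muscle covariate and 20 with the covariate for presence in both title series. Leaving out 1 column gave 8 (WT 2) to 113 (KO 5) higher and 10 (KO 1) to 127 (KO 5) lower. The cause was not tested. All 54 called genes compared kept their direction in each alternative fit that tested them (34 were tested in all 23), 11 kept the call under all 23, and without KO 4 30 lost it. Of the 2 counts, both kept within 1.5 times under RLE factors, no filter, title series 2 alone and WT 2 from its series 2 library. Depth limits genes under 1 CPM, such as Lpo, which was not tested in every fit.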

Other observations

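A further set of genes passed an adjusted p of 0.1 (edgeR quasi-likelihood test, Benjamini-Hochberg adjustment) under the fold limit and in no list. They were chosen after their values were seen, by their known roles in epithelium. Epiplakin (Eppk1), a plakin that binds keratin filaments, was at 27.1, 19.9, 21.7, 22.2 and 22.7 CPM in WT 1 to WT 5 and 42.9, 76.2, 31.1, 41.2 and 28.6 CPM in KO 1 to KO 5 (log2 fold change 0.95, SE 0.22, adjusted p = 0.0915), without overlap. Aqp9, a glycerol and water channel, was at 7.71, 7.97, 6.61, 8.84 and 8.41 CPM and 11.5, 20, 8.89, 17.5 and 13.9 CPM (log2 fold change 0.86, SE 0.20, adjusted p = 0.0911), also without overlap. Cxcl16, a membrane-bound chemokine, was at 6.06, 6.81, 4.93, 6.48 and 6.9 CPM and 8.05, 14.2, 7.87, 15.1 and 10.5 CPM (log2 fold change 0.84, SE 0.19, adjusted p = 0.0797), again apart. Carboxypeptidase M (Cpm) was the most abundant of these, at 78.4, 71, 73.5, 103 and 98.7 CPM and 139, 241, 92.1, 201 and 146 CPM (log2 fold change 0.95, SE 0.22, adjusted p = 0.0911), with an overlap.

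Of the genes that passed as lower under the fold limit, Sybu (-0.84, adjusted p = 0.0171), a microtubule-linked syntaphilin-like protein, and Lmbr1l (-0.89, adjusted p = 0.0184), a lipocalin receptor, had the smallest p among those with a gene name. The noncoding RNAs Snhg17 (-0.53, adjusted p = 0.0891), Snhg20 (-0.70, adjusted p = 0.0891) and Firre (-0.66, adjusted p = 0.0915) were lower as well. Sex was not balanced between the genotypes, and its part in these changes was not tested. Smim5 was at 20.4, 21.9, 20.8, 19.5 and 20.8 CPM in WT and 11.5, 16.3, 15.6, 11.4 and 16.5 CPM in KO (log2 fold change -0.54, SE 0.13, adjusted p = 0.0891), with no overlap.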
